A study of Homo sapiens with 6 samples.

Results

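AXIN2, NKD1, DKK1 and NOTUM are 4 genes that canonical WNT signalling is known to switch on and whose products restrain the same pathway. Their chromatin was described here from the peaks that overlap 4 windows of genome build hg19, 1 for each gene. The windows were 63515 to 63568 kb on chromosome 17 for AXIN2, 50572 to 50685 kb on chromosome 16 for NKD1, 54064 to 54087 kb on chromosome 10 for DKK1 and 79905 to 79925 kb on chromosome 17 for NOTUM. They held 42 of the 142800 peaks in 4 deposited lists. No hg19 annotation was used here, so peaks were tied to a gene by its window alone, and exons, introns and transcript starts were not marked.

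The cells were neural progenitors on day 11 of differentiation toward midbrain dopamine neurons, and all came from the human embryonic stem cell line H9. Boost-Chir cultures received 7.5 µM CHIR99021 from day 4 to day 10. The sample titles call the other cultures Low-Chir, and their concentration for those days is not stated outright. All cultures began in 0.7 µM CHIR99021 with sonic hedgehog, the BMP receptor inhibitor LDN, the TGF-β receptor inhibitor SB431542 and a ROCK inhibitor, and all were given 3 µM CHIR99021 from day 10. H3K4me3 and H3K27me3 were each profiled by chromatin immunoprecipitation and sequencing in 1 library per condition, so no difference below has a replicate check and no p-value was computed. A culture is a mixture, and a mark on more cells cannot be told apart from more of the mark per cell.

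CHIR99021 inhibits GSK3, the kinase that marks β-catenin for degradation. Stabilised β-catenin then works with TCF and LEF proteins at WNT target genes, and AXIN2 in particular is widely used as a readout of the pathway. H3K4me3 lies at active and poised promoters, and broad stretches of it are often found at strongly used cell identity genes. H3K27me3 is placed by Polycomb complexes over silenced developmental genes. AXIN2 is a scaffold of the β-catenin destruction complex and NKD1 binds Dishevelled, so both act inside the cell. DKK1 is secreted and blocks the LRP co-receptors, and NOTUM is a secreted enzyme that removes the lipid from WNT proteins.

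RefSeq promoter sequence (build GRCh38.p14) was matched for 1 of the 4 genes, DKK1. It is the sequence shown because none was matched for AXIN2, NKD1 or NOTUM. The 250 bases before the start lie at chr10:52314031-52314280 on the plus strand of GRCh38.p14, a build that was not joined to the hg19 peaks. Capitals mark the TCF/LEF core letters CTTTGAA, the only match on either strand to CTTTGAT or CTTTGAA, beginning 95 bases before the start.
DKK1: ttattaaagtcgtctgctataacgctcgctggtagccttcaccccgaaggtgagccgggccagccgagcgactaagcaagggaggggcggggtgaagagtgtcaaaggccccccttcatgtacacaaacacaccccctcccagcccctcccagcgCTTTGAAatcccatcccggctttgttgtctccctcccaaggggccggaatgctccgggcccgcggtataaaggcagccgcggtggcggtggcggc
Of 35116 RefSeq promoters of this length, 3.80% hold CTTTGAA on either strand and 5.94% hold CTTTGAA or CTTTGAT. Other forms of the TCF/LEF core were not searched, so they are neither marked nor counted. The match describes letters and does not show binding.

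For H3K4me3 the Boost-Chir list held 46793 peaks and the Low-Chir list 44022. For H3K27me3 the Boost-Chir list held 26260 peaks and the Low-Chir list 25725. Reads covering each summit were recovered from the authors' fold enrichment and p-value. The genome-wide background recovered in the same way is proportional to depth and was 2.67 reads in Boost-Chir and 2.21 in Low-Chir for H3K4me3, a ratio of 1.21. For H3K27me3 it was 3.03 reads in Boost-Chir and 3.12 in Low-Chir, a ratio of 0.971. A deeper library tends to give more and longer peaks, and at the 14475 H3K4me3 loci present in both lists the median length ratio of Boost-Chir over Low-Chir was 1.28.

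All 4 windows had more H3K4me3 in Boost-Chir than in Low-Chir, and both windows with H3K27me3 had nearly all of it in Low-Chir. Summed over the windows, H3K4me3 peaks covered 47.5 kb in Boost-Chir under 22 peaks, against 13.4 kb in Low-Chir under 7 peaks. H3K27me3 covered 0.207 kb in Boost-Chir under 1 peak and 9.03 kb in Low-Chir under 12 peaks. The H3K4me3 length was at least 2 times that of Low-Chir at the main locus of 4 of 4 genes, where 14.9% of all 16580 H3K4me3 loci passed that limit, loci listed in Boost-Chir alone included. A locus here is a run of peaks of either condition joined within 3 kb. Short loci pass more easily, and among the 8459 loci with at least 2 kb in Low-Chir only 1.63% were 2 times as long. AXIN2, NKD1 and DKK1 each had over 2 kb in Low-Chir and belong to these 138 loci, whereas NOTUM had 0.212 kb and does not enter this count.

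**Figure D1:**
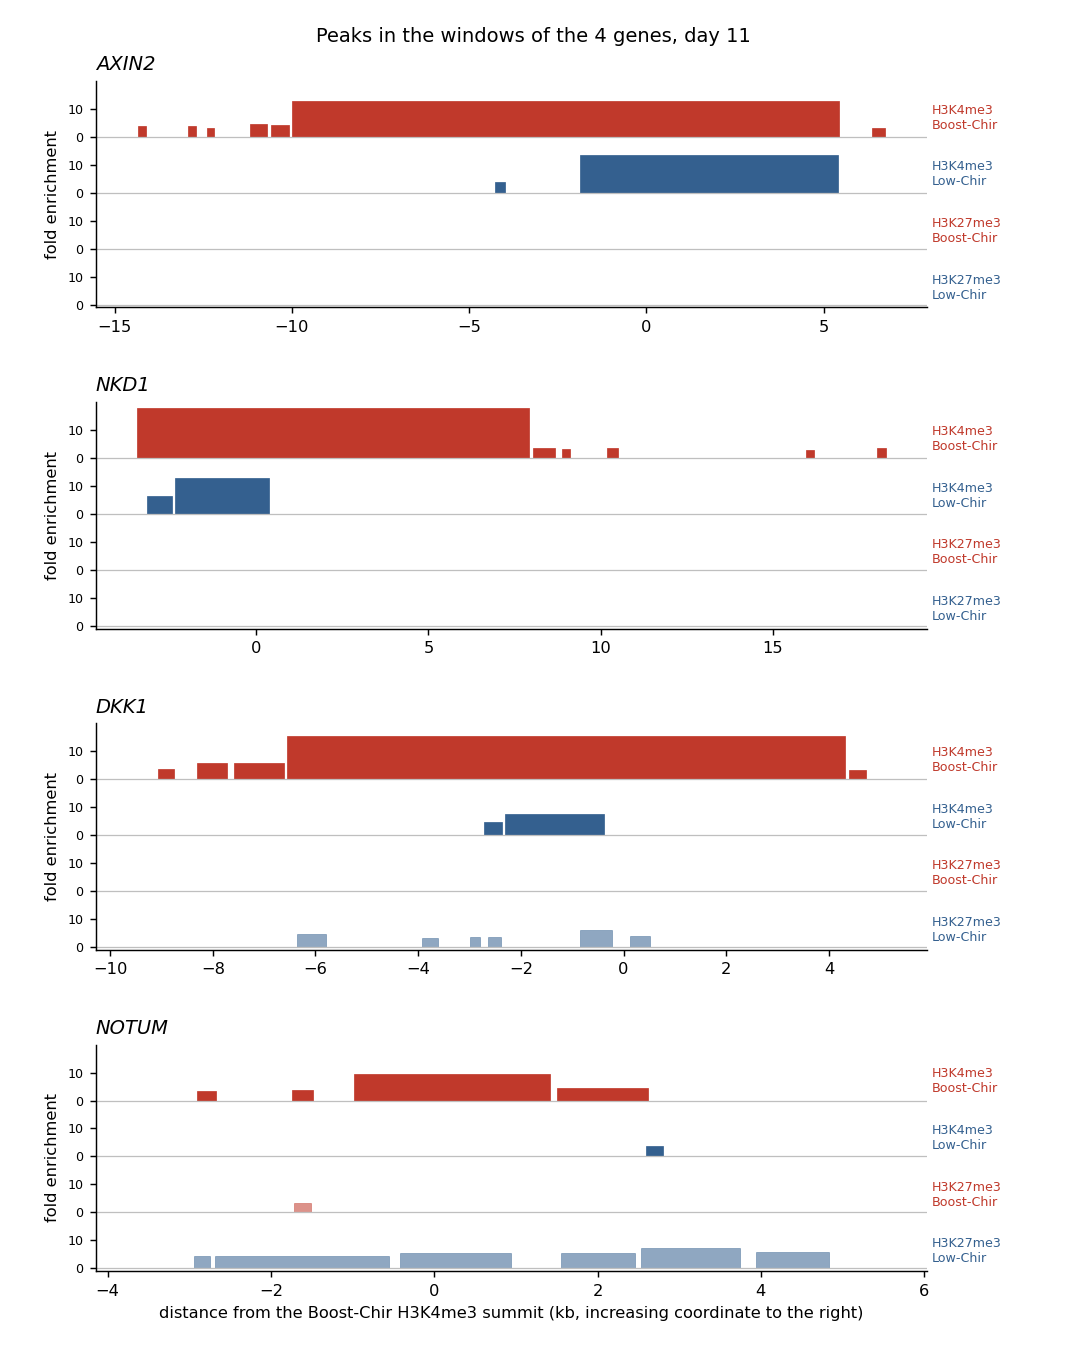
Peaks of both marks in the 4 windows, drawn as boxes from peak start to end with the authors' fold enrichment as height, against the distance in kb from the Boost-Chir H3K4me3 summit with the most reads. The longest Boost-Chir H3K4me3 box of AXIN2, NKD1 and DKK1 spans 15429, 11372 and 10865 bp, and H3K27me3 boxes stand almost only in the Low-Chir rows of DKK1 and NOTUM.

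At AXIN2, H3K4me3 covered 17389 bp in Boost-Chir and 7532 bp in Low-Chir, a ratio of 2.31. Nearly all of it was 1 peak in each list, 15429 bp long in Boost-Chir (17, 63541892 to 63557320) and 7268 bp long in Low-Chir (17, 63550020 to 63557287). The right edges of these peaks differed by 33 bp and the left edges by 8128 bp, so the added length lay toward lower coordinates, the direction in which AXIN2 is transcribed. A further 5 short Boost-Chir peaks of 200 to 514 bp continued on that side, and 1 of 351 bp lay on the other. All 7532 bp marked in Low-Chir were also marked in Boost-Chir. Within the Boost-Chir list 99.99% of peaks were shorter than the long AXIN2 peak, and within the Low-Chir list 99.92% were shorter than its counterpart, so AXIN2 was already among the broadest H3K4me3 peaks without the boost.

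The AXIN2 summit was not higher in fold. The authors' fold enrichment was 12.9 in Boost-Chir and 13.4 in Low-Chir. The Boost-Chir summit was covered by 70 reads (exact Poisson 95% interval 54.6 to 88.4) over a local background of 4.51 reads. The Low-Chir summit had 42 reads (30.3 to 56.8) over a background of 2.21. A local background of at least 4.5 reads was found at 13.3% of Boost-Chir and 4.62% of Low-Chir peaks, and its part in the fold was not tested. Reads above the local background, divided by the genome-wide background of the library, are called the depth-scaled enrichment here. It was 24.5 in Boost-Chir (18.7 to 31.4) and 18.0 in Low-Chir (12.7 to 24.7), and these counting intervals overlap. The ratio of 1.36 stood against a median of 1.09 over 14475 loci, of which 11.4% had a higher ratio. Both summits lay inside the part marked in both cultures, 4021 bp apart.

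NKD1 had H3K4me3 over 13025 bp in Boost-Chir and 3432 bp in Low-Chir, a ratio of 3.80. The longest Boost-Chir peak had 11372 bp (16, 50581128 to 50592499). In Low-Chir a peak of 721 bp stood near the same start, followed by one of 2711 bp (16, 50582235 to 50584945). The outermost left edge differed by 290 bp and the long peak reached 7554 bp further right in Boost-Chir, again along the gene, since NKD1 is transcribed toward higher coordinates. Another 5 Boost-Chir peaks of 235 to 621 bp lay still further in, with 13 to 17 reads each. Only 11.5% of the long NKD1 window was under H3K4me3 in Boost-Chir and 3.04% in Low-Chir.

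NKD1 had the highest fold of the 4 genes in Boost-Chir, 18.0 against 12.8 in Low-Chir. The summit reads were 65 in Boost-Chir (50.2 to 82.8) and 42 in Low-Chir (30.3 to 56.8). The depth-scaled enrichment was 23.3 in Boost-Chir (17.8 to 30.0) and 17.9 in Low-Chir (12.6 to 24.6), with overlapping intervals and a ratio of 1.30. A higher ratio was seen at 16.3% of loci, so NKD1, like AXIN2, differed far more in the extent of H3K4me3 than in its height. Neither AXIN2 nor NKD1 had an H3K27me3 peak in either culture, inside the window or within 10 kb of it. This is the usual state, since 75.8% of the 16580 H3K4me3 loci had no H3K27me3 peak in either list. The fewest reads of any H3K27me3 peak were 11 in the Boost-Chir list and 12 in the Low-Chir list, and weaker signal would not appear.

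**Figure D2:**
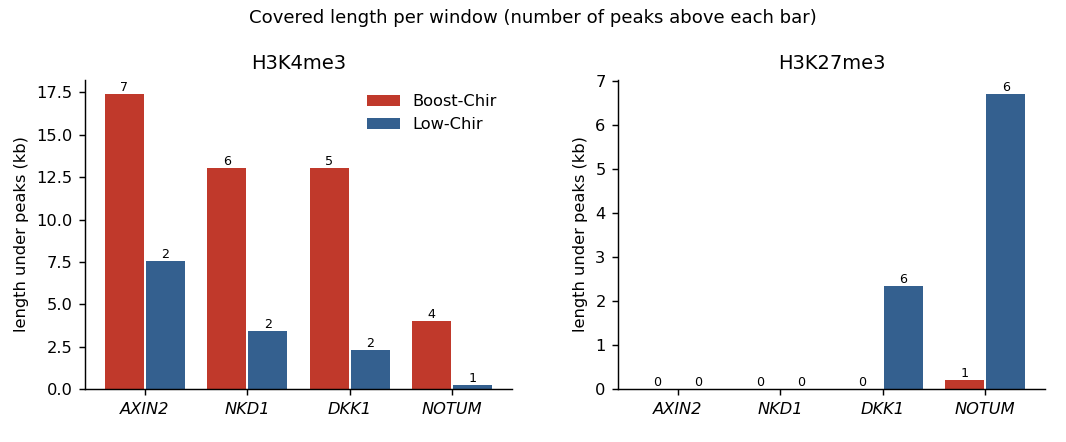
Length under peaks in kb per window, Boost-Chir to the left of Low-Chir, for H3K4me3 (left panel) and H3K27me3 (right panel), with the number of peaks above each bar and 1 library per bar. H3K4me3 was longer in Boost-Chir in all 4 windows, and H3K27me3 stood at 2.33 kb for DKK1 and 6.70 kb for NOTUM in Low-Chir.

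At DKK1 both marks differed. H3K4me3 covered 13061 bp in Boost-Chir, 56.8% of the window, and 2273 bp in Low-Chir, 9.88% of it, which is a ratio of 5.75. The main Boost-Chir peak of 10865 bp (10, 54069233 to 54080097) took in both Low-Chir peaks, of 1931 bp (10, 54073478 to 54075408) and 342 bp. Unlike at AXIN2 and NKD1, the added H3K4me3 lay on both sides, with 5700 bp to the left and 5020 bp to the right of the Low-Chir peaks. On the left it continued as peaks of 961, 575 and 329 bp with 22, 21 and 14 reads, and on the right as 1 of 331 bp with 11 reads. Ranked by added length, DKK1 was number 5, AXIN2 number 6 and NKD1 number 9 of all 16580 H3K4me3 loci, and NOTUM was number 148. With a median length ratio of 1.28 over the genome, such a rank favours loci that are already long, as AXIN2 was.

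The top DKK1 summit was also higher in Boost-Chir, though it lay at another place than in Low-Chir. It had 68 reads in Boost-Chir (52.8 to 86.2), with a fold of 15.6, and 28 reads in Low-Chir (18.6 to 40.5), with a fold of 7.75. The depth-scaled enrichment was 24.2 in Boost-Chir (18.5 to 31.0) and 11.4 in Low-Chir (7.18 to 17.1), and the intervals do not overlap. The ratio was 2.12, between summits 2113 bp apart, and the Boost-Chir summit lay outside the Low-Chir peaks. A ratio of at least 2 was reached at 0.442% of the 14475 loci in both lists, or 64 of them, and DKK1 and NOTUM were among these 64. By the authors' fold, a ratio of at least 2 was reached at 1.91% of loci, and again by DKK1 at 2.01 and NOTUM at 2.55. Both length and depth-scaled enrichment were at least 2 times as high at 0.332% of loci, or 48, which include DKK1 and NOTUM and neither AXIN2 nor NKD1. In Low-Chir 37.6% of loci had a lower enrichment than DKK1, and in Boost-Chir 99.2% had.

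H3K27me3 at DKK1 was listed in Low-Chir alone. The 6 Low-Chir peaks covered 2334 bp and were scattered over 6.88 kb (10, 54069422 to 54076296). They had 25, 24, 16, 16, 28 and 20 reads from left to right, with folds of 3.26 to 6.12. The Boost-Chir list had 0 bp in the window. Scaled to the Boost-Chir depth the Low-Chir summits would hold 15.5 to 27.2 reads, above the 11 reads of the weakest peak in the Boost-Chir list. Their local backgrounds were 3.65 to 6.6 reads, above the genome-wide 3.12, and a higher background asks for more reads. Whether such summits would be listed in Boost-Chir was not tested. All 2334 bp of Low-Chir H3K27me3 lay under Boost-Chir H3K4me3 peaks. In Low-Chir itself 719 bp were under peaks of both marks.

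NOTUM, in contrast to AXIN2 and NKD1, was mainly an H3K27me3 locus in Low-Chir. The DKK1 window in Low-Chir had similar lengths of both marks, 2334 bp of H3K27me3 and 2273 bp of H3K4me3. At NOTUM in Low-Chir 6 H3K27me3 peaks covered 6696 bp (17, 79914967 to 79922749), 33.5% of the window, with 17 to 29 reads at their summits. The highest had 29 reads (19.4 to 41.6) and a fold of 7.13, and 95.69% of peaks in its list had a lower fold. In Boost-Chir the window held 1 H3K27me3 peak of 207 bp, with 13 reads (6.92 to 22.2) and a fold of 3.43. The 6 Low-Chir summits would hold 16.5 to 28.2 reads at the Boost-Chir depth. The depth-scaled enrichment at the top H3K27me3 summit was 3.28 in Boost-Chir (1.27 to 6.32) and 8.29 in Low-Chir (5.22 to 12.3), a ratio of 0.396. These counting intervals overlap, and the summits lay 4524 bp apart, so the ratio does not compare the same site. Of 4499 H3K27me3 loci in both lists, 0.333% had a ratio of at most 0.5 and the median was 0.920. Loci listed in Low-Chir alone, DKK1 among them, have no such ratio and are not part of this share.

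H3K4me3 at NOTUM covered 4017 bp in Boost-Chir under 4 peaks and 212 bp in Low-Chir under 1 peak. The strongest Boost-Chir peak had 2405 bp (17, 79916926 to 79919330), 36 reads (25.2 to 49.8) and a fold of 9.52. The single Low-Chir peak had 11 reads (5.49 to 19.7) and a fold of 3.74, and its list holds no peak with fewer than 8 reads. The length ratio of 18.9 thus rests on a Low-Chir peak near the calling limit. It was 5.47 with the window widened by 10 kb on each side and 11.3 with the longest peak of each list only. The depth-scaled enrichment was 12.4 in Boost-Chir (8.36 to 17.6) and 3.98 in Low-Chir (1.48 to 7.91), with intervals that do not overlap. These summits lay 2720 bp apart, and the Boost-Chir summit lay outside the Low-Chir peak, so the values do not compare the same site. The Low-Chir value rests on the same peak of 11 reads near the calling limit. The 2 conditions also differed in place, since 25 bp of the Low-Chir peak were under Boost-Chir H3K4me3. The Boost-Chir peaks lay toward lower coordinates, the direction in which NOTUM is transcribed, and covered 3203 bp, or 47.8%, of the Low-Chir H3K27me3.

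Both genes with H3K27me3 in Low-Chir had at least 2 times the H3K4me3 length and at most 0.5 times the H3K27me3 length in Boost-Chir. Of all 3548 H3K4me3 loci with H3K27me3 in Low-Chir, 4.79% did so. A drop of H3K27me3 to at most 0.5 times was common on its own, at 28.6% of these 3548 loci, and at 29.6% of all 7868 H3K27me3 loci. Among the 543 of the 3548 loci whose H3K4me3 was at least 2 times as long, the share was 31.3% (exact binomial 95% interval 27.4 to 35.4). Ranked by lost length, NOTUM was number 53 and DKK1 number 359 of the 7868 H3K27me3 loci. Bases under peaks of both marks were 0 bp in Boost-Chir and 719 bp in Low-Chir at DKK1, and 207 bp in Boost-Chir and 212 bp in Low-Chir at NOTUM. Each of these NOTUM stretches was the whole of 1 weak peak, of H3K27me3 in Boost-Chir and of H3K4me3 in Low-Chir.

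**Figure D3:**
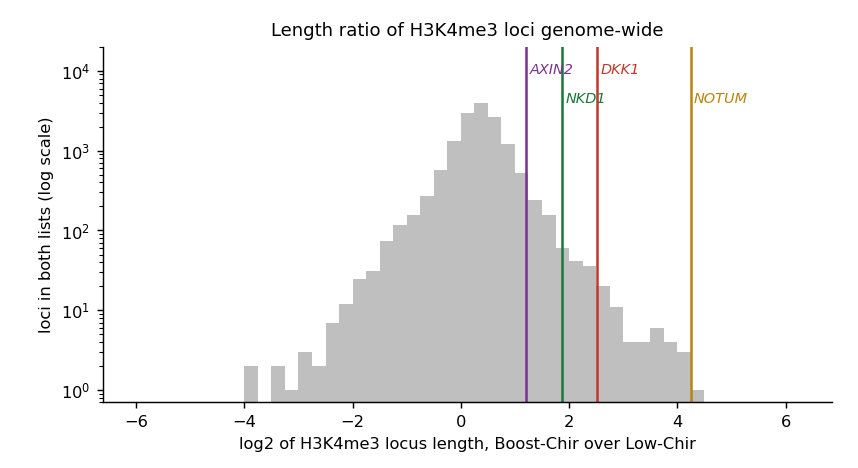
Number of H3K4me3 loci in both lists (log scale) by the log2 ratio of their length, Boost-Chir over Low-Chir, with vertical lines at the loci of the 4 genes. The lines stand right of the bulk of the 14475 loci, whose median ratio is 1.28, at ratios of 2.31 for AXIN2, 3.65 for the main NKD1 locus, 5.75 for DKK1 and 18.9 for NOTUM, the last resting on 212 bp in Low-Chir.

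Set side by side, AXIN2, NKD1 and DKK1 had nearly the same depth-scaled H3K4me3 enrichment in Boost-Chir, and NOTUM had the lowest in both cultures. By the authors' fold they were further apart in Boost-Chir, at 18.0 for NKD1, 15.6 for DKK1 and 12.9 for AXIN2, with NOTUM lowest at 9.52. In Boost-Chir the depth-scaled enrichment was 24.5 for AXIN2, 24.2 for DKK1, 23.3 for NKD1 and 12.4 for NOTUM. The intervals of the first 3 overlap, and that of NOTUM lies just below them. In Low-Chir it was 18.0 for AXIN2, 17.9 for NKD1, 11.4 for DKK1 and 3.98 for NOTUM. The intervals of neighbours in this order overlap, for DKK1 (7.18 to 17.1) and NOTUM (1.48 to 7.91) over a narrow part. The median over the 14475 loci was 15.1 in Boost-Chir, inside the NOTUM interval of 8.36 to 17.6, and 13.4 in Low-Chir, above the NOTUM interval.

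**Figure D4:**
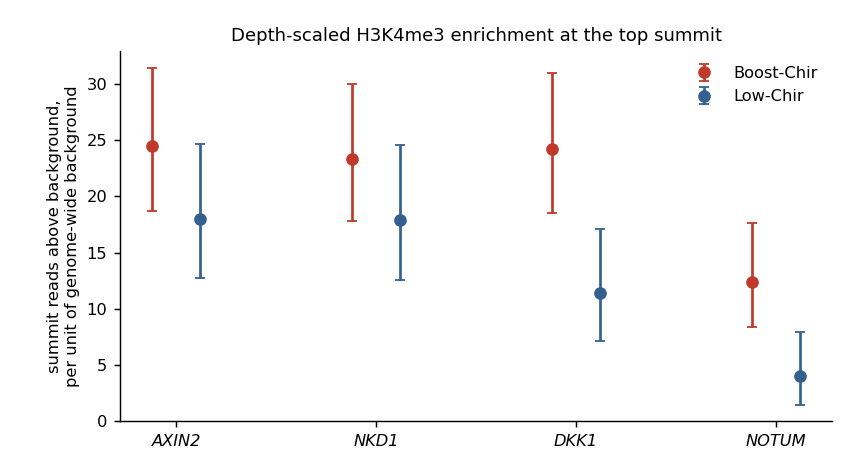
Depth-scaled H3K4me3 enrichment at the summit with the most reads in each window (reads above the local background per unit of genome-wide background), with Boost-Chir left of Low-Chir. Points are 1 library each and bars are exact Poisson 95% intervals for counting error only, which overlap for AXIN2 and NKD1 and not for DKK1 (24.2 and 11.4) or NOTUM (12.4 and 3.98). The summits of the 2 conditions lay 621 bp apart at NKD1, 2113 bp at DKK1, 2720 bp at NOTUM and 4021 bp at AXIN2. The points of a gene therefore do not compare the same site.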

How the data were processed

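The submitters' processing notes name cutadapt 1.6, BWA 0.7.12, Picard and build hg19. The peak caller is not given in the sources used here. The names of the peaks pair each antibody library with the input of the same culture. Each deposited peak carries the authors' fold enrichment (a ratio), −log10 p-value and −log10 q-value, a summit and a score. The deposited score was not used. The 2 inputs have no file here.

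Python 3.11.15, numpy 2.4.6, pandas 2.3.3, scipy 1.17.1 and matplotlib 3.10.9 were used. Peaks were clipped to the windows. Fold, taken as (pile-up + 1) over (background + 1), and p, taken as a Poisson tail, were solved for pile-up and background at each summit. Pile-ups came in whole multiples of a step, 1 for both H3K4me3 lists and, for H3K27me3, 0.977 in Boost-Chir and 0.909 in Low-Chir. Pile-up and background were divided by the step to give reads. The deposited −log10 p was returned within 0.001 for 100% of peaks. The read recovery was tested on simulated data made with the same formulas. The locus rule was tested on the Low-Chir H3K4me3 list with planted widenings of short isolated peaks, unlike the long clustered loci here. Intervals (95%) cover counting error only, and a summit is the highest point of its peak. Loci are runs of peaks from the Boost-Chir and Low-Chir lists of a mark, joined across gaps of up to 3 kb. All peaks of the 4 genes were counted, and the highest and longest per window were named. The members, windows and limits were chosen with earlier results of these data known. Other WNT genes were not analysed here, since no hg19 annotation was used.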

Additional observations from a re-analysis of the deposited data

How the results depend on the processing

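No paired analysis was possible because only 1 library was made per mark and culture. Of 55 alternative values for the windows and for the share of longer loci, 50 stayed within 1.5 times the reported value. The exceptions were 5. H3K27me3 at AXIN2 and NKD1, at 0 bp throughout, is not counted. Many of the 50 equal the reported value because the setting changed no peak in the window. At AXIN2, NKD1 and DKK1 this held for wider windows, whole peak lengths and equal peak numbers. The count of 50 is therefore a weak check. The NOTUM H3K4me3 length ratio of 18.9 was 5.47 with windows widened by 10 kb and 11.3 with the longest peak only, and had no value with the top 50% of each list, which drops its Low-Chir peak. The DKK1 H3K27me3 difference of -2.33 kb was -1.19 kb with the top 50% of each list, with 0 bp in Boost-Chir either way. The share of loci at least 2 times as long was 23.0% when joined within 1 kb and 1.63% for loci with at least 2 kb in Low-Chir. The AXIN2 top fold ratio of 0.963 turned to 1.38 as reads per unit of depth and 1.36 with the local background subtracted. Across their alternatives the length ratio was 2.12 to 2.31 for AXIN2, 3.31 to 4.19 for NKD1 and 5.63 to 6.42 for DKK1. Keeping Boost-Chir peaks that would pass at the Low-Chir depth left 97.4% of its H3K4me3 list and every peak in the windows, but it does not narrow the peaks kept. The longest-peak and background-subtracted alternatives were chosen after seeing the data.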

Other observations

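Within 10 kb outside the windows, NOTUM alone had peaks. The nearest strong H3K4me3 locus began 8.85 kb beyond its right border in Boost-Chir. There the Boost-Chir peak had 3246 bp, 47 reads and a fold of 13.1 (17, 79933854 to 79937099), and the Low-Chir peak had 820 bp, 25 reads and a fold of 5.87 (17, 79934508 to 79935327). H3K27me3 was listed there in Low-Chir alone, as 1 peak of 744 bp with 19 reads. On the other side, 9.49 kb away, an H3K4me3 peak had 1211 bp and 29 reads in Boost-Chir and 900 bp and 17 reads in Low-Chir, with no H3K27me3 peak. These flanking peaks were not assigned to a gene.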
